A study of Homo sapiens with 11 samples.

Results

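Ribosome footprints were compared with RNA inside HEK293T cells that lack the enzyme which adds a methyl group at the N6 position of the adenosine beside the messenger RNA cap. HEK293T cells derive from human embryonic kidney and express a viral T antigen. The labels give the gene as CSAM, now named PCIF1, and number the knockouts 1 and 2. The libraries were taken by their labels, 8 of 11 in the series: 2 footprint and 2 RNA libraries of each knockout. Every one of the 8 carries the knockout, no treatment is labelled, and the labels do not say how either knockout line was derived or whether replicates came from separate cultures. The wild-type libraries, 1 of footprints and 2 of RNA, served only to check the ranking. With no statement on cultures, p-values measure the spread between these libraries, which may be technical.

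A ribosome shields the stretch of messenger RNA it sits on from RNase, so sequencing the protected fragments counts ribosomes on each transcript. Dividing the footprint level by the RNA level gives the ribosome occupancy per RNA, often called translational efficiency. It rises when initiation is frequent or elongation slow, and falls when a transcript is held away from ribosomes. In cultured human cells it is known to vary between transcripts, through features such as structured leaders, upstream reading frames and regulated start sites. The RNA libraries here came from a kit that captures polyadenylated RNA, whereas footprints are not selected by their tail.

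Transcripts are listed by UCSC-style identifiers, which no table used here paired with gene symbols (2 of 182398 matched, neither with a listed length), so genes cannot be named, the knocked-out gene could not be checked and no sequence is shown. Merging rows with identical counts left 66016 features. Of these, 43469 (65.8%) had at least 10 counts in at least 2 knockout libraries of each assay, 12721 reached that in RNA alone, 455 in footprints alone and 9371 in neither. The features that reached it in RNA alone had a median RNA level of 0.66 CPM (the count scaled to the library total) and a median listed length of 132, against 7.06 CPM and 265 for those that passed in both. Transcripts of 1 gene share reads, so distributions and correlations below use 1 feature per 20 lines of the table, the one with the highest count, which gave 7765 features. Library totals after merging ran from 8387752 to 17437453 in knockout footprints, with replicate 1 of knockout 2 the deepest, and from 40346318 to 49580593 in knockout RNA. The value used for distributions, class medians and correlations is log2 occupancy, the log2 of footprint CPM minus the log2 of RNA CPM with 0.5 CPM added to each. A value of 0 means an equal share of both libraries. A value for a single footprint library sets it against the mean log2 RNA of its knockout, so both libraries of a knockout share the same RNA value. Tests, named transcripts and tested differences between knockouts, with their class medians, use the value fitted by edgeR. That value is scaled within each assay and lacks the 0.5 CPM.

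The first question was how widely occupancy differs between transcripts of the same cells. In the mean of the knockouts, leaving aside the lowest and highest 10% of features, it ran from -1.53 to 1.12, a 6.26-fold range. Leaving aside 5% at each end, the range was 11.6-fold. The median was -0.18. Occupancy was more than 2-fold above an equal share for 11.96% of features and more than 2-fold below for 21.2%. The SD over features was 1.09 in knockout 1 and 1.13 in knockout 2, and from 1.09 to 1.13 in the 4 footprint libraries taken singly. With 10% left aside at each end, RNA levels spanned a 22.1-fold range and footprint levels a 31.6-fold range, so occupancy was the narrower quantity.

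**Figure D1:**
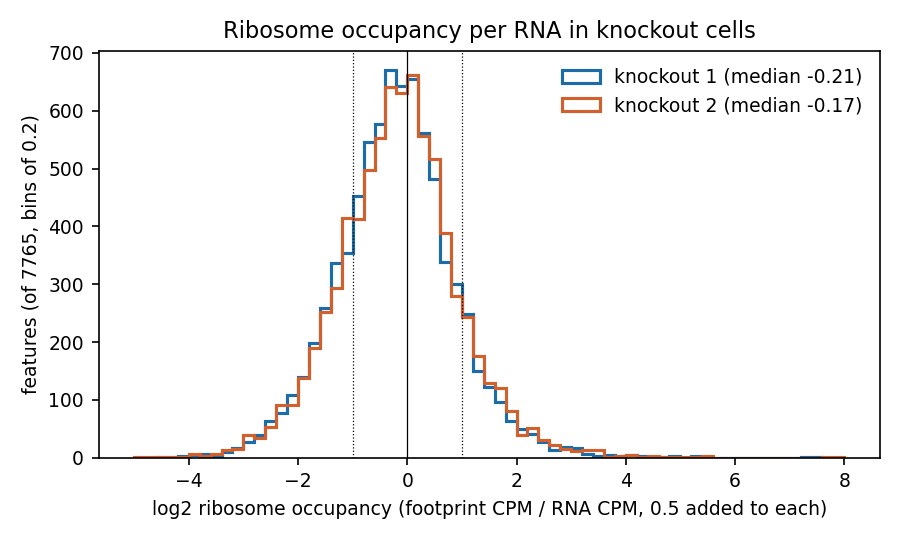
Number of features (vertical axis, of 7765, 1 per 20 lines) by log2 ribosome occupancy (horizontal axis, bins of 0.2) in knockout 1 and knockout 2, with dotted lines at a 2-fold difference on either side of an equal share. The 2 outlines lie over each other, with medians of -0.21 and -0.17.

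Replicate error was small beside this spread. In knockout 1 the SD between replicates was 0.19 on the log2 scale for footprints and 0.10 for RNA, and in knockout 2 it was 0.16 and 0.12. Carried into the mean of 2 libraries per assay, this gave an error of 0.15 in either knockout. That error made up 1.94% of the variance over features in knockout 1 and 1.66% in knockout 2.

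The spread was then tested feature by feature, footprints against RNA over both knockouts with equal weight (edgeR quasi-likelihood test, adjusted over all 43469 features, threshold 0.05). It called 34608 features (79.6%), of which 15374 were higher in footprints (35.4% of those tested) and 19234 lower (44.2%). Against a difference of 2-fold, a stricter test of the same fit, 12310 passed (28.3%). They comprised 5337 features with more footprints than RNA (12.3%), in 2105 stretches of 20 lines, and 6973 with fewer (16%), in 2653 stretches. A call with fewer footprints needs at least some footprints to pass the count limit, so the lower count depends on it. Without that limit 6485 of 62734 features were more than 2-fold higher and 11738 lower. With a mean of at least 50 counts in each assay, 3648 of 24825 were higher and 2614 lower. Which side held more calls also depended on where 0 was set. With 0 at the median feature 6197 were higher and 5964 lower, and with all 8 libraries scaled together 6040 and 6157.

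Single transcripts show how far apart the assays can lie. Among features with at least 5 CPM of RNA, the highest occupancy was that of uc021vor.3 (listed length 1029). Its footprints were 430.4 and 426.7 CPM in knockout 1 and 345.4 and 335.1 in knockout 2, while its RNA was 10.04 and 10.1 CPM in knockout 1 and 6.98 and 6.61 in knockout 2. Every footprint value lay above every RNA value, which the rule for naming required within each knockout. The fitted log2 occupancy was 5.53 ± 0.072 (SE; edgeR adjusted p = 3.23e-43). The wild-type libraries gave 361.1 CPM of footprints and 8.64 and 6.94 CPM of RNA. The next, uc031rpa.2 (listed length 1066, log2 occupancy 5.52 ± 0.072), had nearly the same counts in every library (4497 footprints against 4527 in replicate 1 of knockout 1), so the pair cannot be taken as independent. Whether they share reads, and so which of them the footprints belong to, was not tested.

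At the other end of the features that met the same conditions stood uc010ozx.3 (listed length 856), present as RNA with almost no footprints. Its RNA was 31.3 and 35.8 CPM in knockout 1 and 26.5 and 29.2 in knockout 2, against footprints of 0.761, 1.19, 0.573 and 0.329 CPM, which rest on 8, 10, 10 and 3 counts. The fitted log2 occupancy was -5.47 ± 0.15 (SE; edgeR adjusted p = 1.93e-31), and wild type held 0.799 CPM of footprints and 38.0 and 35.4 CPM of RNA. The second lowest under these conditions was uc057kdn.1 (listed length 1448). Its footprints were 1.24 and 1.91 CPM in knockout 1 and 1.32 and 0.767 in knockout 2, with RNA at 45.2, 48.5, 38.6 and 42.7 CPM. Its log2 occupancy was -5.05 ± 0.12 (SE; edgeR adjusted p = 4.40e-33). Footprint and RNA values that do not overlap within each knockout were a condition for naming these 4 transcripts. In wild type, which the condition left out, they did not overlap either.

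**Figure D2:**
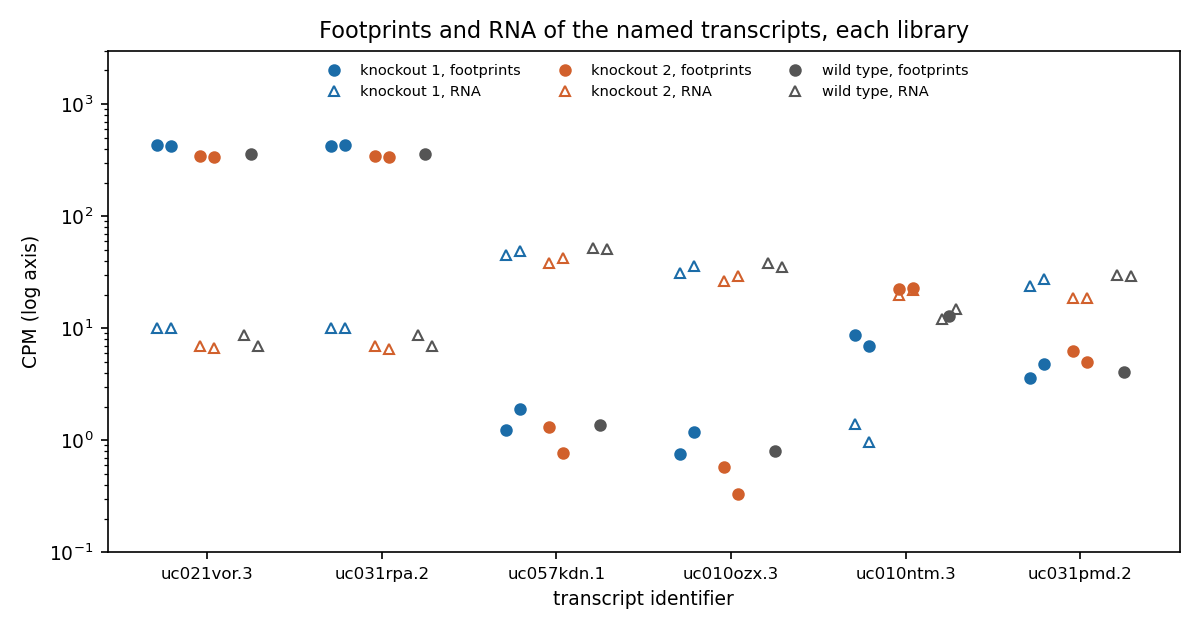
CPM on a log axis (vertical) of footprints (filled circles) and RNA (open triangles) in each library, by genotype, for the 6 transcripts named in the text. The assays lie apart in the first 4, as the rule for naming them required within each knockout. In uc010ntm.3 the RNA of knockout 1, at 1.39 and 0.968 CPM, lies below every other value.

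Features at the extremes were few. In the mean of the knockouts 62 of 7765 had more than 8-fold more footprints than RNA and 48 more than 8-fold fewer. The 62 had a median listed length of 356.5 and the 48 a median of 379.5, against 460 over all features. Both sets held short and long transcripts: of the 62, 16 had a listed length of 100 to 200 and 10 a length over 800, and of the 48 these numbers were 7 and 10. Over all 7765 features they were 1011 and 1778. The median RNA level was 3.69 CPM in the highly occupied set, 36 of which lay below 5 CPM, and 33.3 CPM in the poorly occupied set, of which 0 did. The limit on footprint counts and the 0.5 CPM added to each assay keep transcripts of low RNA level out of the poorly occupied set. The RNA levels of the sets therefore cannot be compared.

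The second question was how occupancy follows RNA level. Transcripts with more RNA had more footprints almost in proportion. Across 7764 features with a listed length of at least 20, log2 footprints rose by 0.89 per unit of log2 RNA in both knockouts, and RNA level accounted for 69.0% of the variance of footprints in knockout 1 and 67.9% in knockout 2. With an RNA level of at least 5 CPM (6394 features) the slope was 0.98 in both, and 63.9% and 62.9% of the variance went with RNA. Wild type gave a slope of 0.93 over the first set and 1.02 over the second.

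What remained, the occupancy, had a weak relation to RNA level that depended on which features were kept. Over all 7765 features the rank correlation was -0.15 in the mean of the knockouts, and from -0.16 to -0.14 in the 4 footprint libraries. RNA enters both axes. With the RNA level taken from the other replicate the value was -0.15, and with that of wild type -0.16. The share of features that met the limit on footprint counts also moved with RNA level. Of features with under 1 CPM of RNA that passed in RNA, 27.5% also passed in footprints, against 63.1% from 1 to 2 CPM, 87.4% from 2 to 5 CPM, 97.3% from 5 to 10 CPM and 99.9% from 20 CPM. With at least 5 CPM of RNA, which also narrows the range of RNA levels, the rank correlation was -0.019. With a mean of at least 50 counts in each assay it was -0.30. Under the first limit, all features gave -0.28 and 1 feature per 50 lines gave -0.064. The part of the count limit in the relation was not tested. These are correlations across features, which are not replicates and which share libraries and depth.

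The shape was not a straight line. Sorted by RNA level into 5 groups of 1553 features, the median log2 occupancy was 0.17 in the lowest group (up to 5.53 CPM), then -0.20, -0.33 and -0.35, and -0.19 in the highest (from 44.8 CPM). Among abundant RNAs the medians were uneven: -0.15 for 610 features with a log2 RNA level from 6 to 7, 0.022 for 198 from 7 to 8, -0.019 for 102 from 8 to 9, and -0.81 for the 89 from 9 upward. The most abundant RNAs had the lowest median of all bands. Spread within a group stayed close to that over all features, with SDs of 1.12 in the lowest and 1.01 in the highest.

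**Figure D3:**
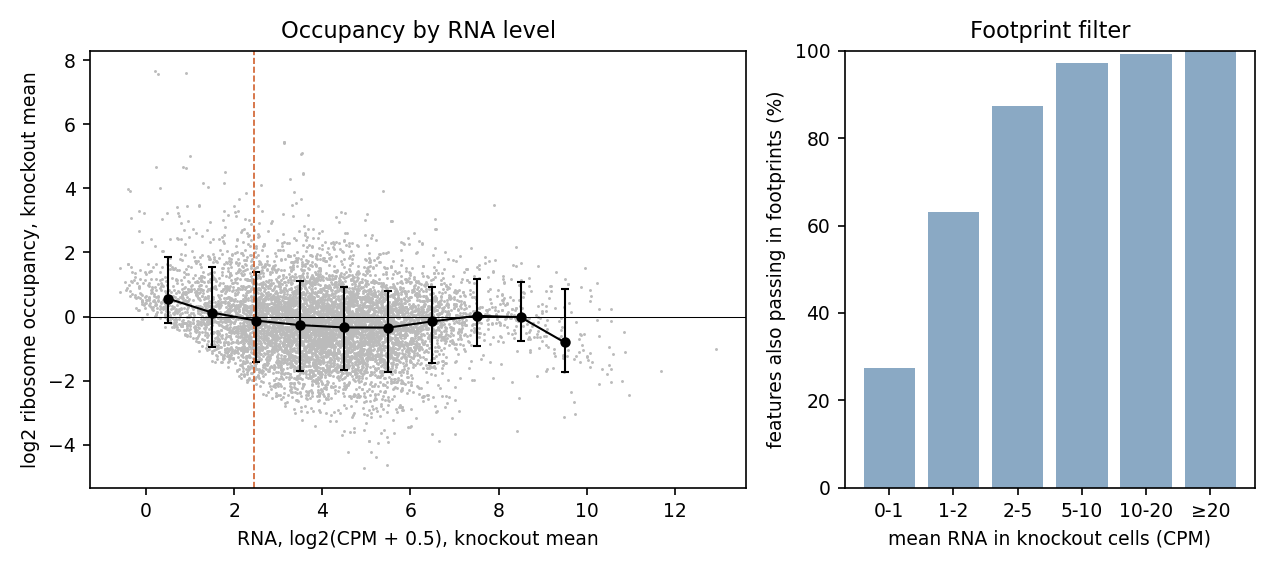
Left, log2 occupancy in the mean of the knockouts (vertical) against RNA as log2 of CPM + 0.5 (horizontal); grey points are 7765 features, black points medians per unit of RNA level, bars leave out the lowest and highest 10%, and the dashed line 5 CPM. Right, the share of features passing in RNA that also passed in footprints, by RNA level, from 27.5% under 1 CPM to 99.9% from 20 CPM.

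The third question was the relation to listed length. The unit of that length is not stated in the files, and it is used here only to rank and class transcripts; a reading as codons of the coding part was not tested. In the knockouts length had little bearing on occupancy. The rank correlation was -0.075 in knockout 1 and -0.0022 in knockout 2, with -0.081 and -0.068 in the footprint libraries of knockout 1 and -0.0071 and 0.0029 in those of knockout 2. The slope per doubling of length was -0.077 in knockout 1 and -0.0090 in knockout 2, which went with 0.66% and 0.0085% of the variance. In the wild-type libraries the rank correlation was -0.19 and the slope -0.19, with 3.74% of the variance. Length and RNA level together went with 3.84% of the variance of occupancy in knockout 1 and 3.24% in knockout 2.

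Classes of length include their upper bound and not their lower. Medians in the mean of the knockouts were -0.15 up to 100 (240 features), -0.25 from 100 to 200 (1011), -0.14 from 200 to 400 (2055), -0.14 from 400 to 800 (2681) and -0.27 over 800 (1778). In each of the 4 footprint libraries the median of the class over 800 and that of 100 to 200 lay below that of 200 to 400. The class up to 100 did so only in knockout 1, at -0.22 and -0.20 against -0.10 and -0.14. In knockout 2 it lay above, at -0.078 and -0.12 against -0.17 and -0.13. In the longest class the medians were -0.35 and -0.36 in the libraries of knockout 1 and -0.23 and -0.21 in those of knockout 2. They did not overlap, but both libraries of a knockout were set against the same mean RNA, so the spread between RNA replicates is left out. The wild-type median over 800 was -0.64, and -0.012 in the class up to 100, from 1 footprint library.

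Over all 43469 features, not 1 per 20 lines, the median up to 100 was above 0, at 0.11. Restricting the classes to at least 5 CPM of RNA lowered the class up to 100 most. The medians became -0.35 up to 100 (187 features), -0.32 from 100 to 200, -0.21 from 200 to 400, -0.20 from 400 to 800 and -0.39 over 800. In the highest of the 5 RNA groups the contrast between classes was widest: -0.53 up to 100 (57 features), -0.33 from 100 to 200, -0.17 from 200 to 400, -0.0052 from 400 to 800 and -0.38 over 800. In that group the class of 400 to 800 had the highest median in the knockouts and the class up to 100 the lowest. The order was another in wild type, where 200 to 400 was highest (-0.041, against -0.077 from 400 to 800), over 800 lowest (-0.65) and the class up to 100 at -0.16. Over the whole table, 10.6% of the class of 400 to 800 was called more than 2-fold higher and 17.1% more than 2-fold lower, against 12.3% and 16% of all features. In the class over 800 these shares were 11.1% and 19.9%, and in the class up to 100 they were 19.5% and 13.6%. The shares also moved with RNA level. With the whole table cut into 5 groups by RNA level, they were 26.6% and 0.35% in the lowest and 6.91% and 21.2% in the highest. With 1 feature per 20 lines and at least 5 CPM, 12.8% of the class up to 100 lay more than 2-fold above an equal share and 23.5% below, without a test.

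Shares of counts weight a transcript by its level. The class of 100 to 200 took 17.3%, 17.5%, 16.7% and 16.4% of footprints in the 4 knockout libraries and 21.2%, 20.9%, 21.7% and 21.3% of RNA. The difference, footprints minus RNA, was -4.298 percentage points (16.99% ± 0.52 against 21.3% ± 0.34, SD, n = 4 libraries each; exact permutation test over 70 splits, two-sided, p = 0.0286, adjusted p = 0.036 over the 5 classes). The class of 400 to 800 went the other way, with 32.5% ± 0.56 of footprints and 28.8% ± 0.14 of RNA (SD, n = 4; exact permutation p = 0.0286, adjusted p = 0.036). The class up to 100 held 2.63% ± 0.092 of footprints and 3.23% ± 0.092 of RNA with the same exact p, the smallest that 70 splits allow. The class of 200 to 400 held 29.3% ± 0.34 and 28.3% ± 0.62 with the same p, but the gap was 1.73 percentage points in knockout 1 and 0.14 in knockout 2, and its adjusted exact p was 0.071 with 1 feature per 5 lines. In the class over 800 the shares were 18.6% ± 0.23 and 18.3% ± 0.90 (exact permutation p = 0.54). The 70 splits exchange libraries across the knockouts. Exchanged only within each knockout there are 36, which cannot go below p = 0.056; the 4 classes up to 800 gave that value (exact permutation, adjusted p = 0.069) and none passed. Leaving out any library leaves 35 splits, whose smallest exact p of 0.0571 could not pass either.

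The size of these differences depended on the features counted. Over all features, not 1 per 20 lines, the difference was -2.50 percentage points from 100 to 200, 1.59 from 400 to 800 and 1.52 from 200 to 400, where 1 per 20 lines gave -4.298, 3.70 and 0.94. Up to 100 it was -0.55 over all features and -0.36 with 1 per 5 lines, against -0.61. The sign of these 4 classes was the same in each.

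The class over 800 moved in opposite directions in the knockouts. In knockout 1 it took 18.4% of the counts of the 7765 features in both footprint libraries, and 18.9% and 19.3% of those in RNA. In knockout 2 it took 18.9% and 18.6% of footprints and 17.5% and 17.6% of RNA. Footprints were thus lower than RNA by every pairing of libraries in knockout 1 and higher by every pairing in knockout 2. Footprint shares of the knockouts were within 0.5 percentage points of each other, while RNA shares differed by more than 1 percentage point.

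**Figure D4:**
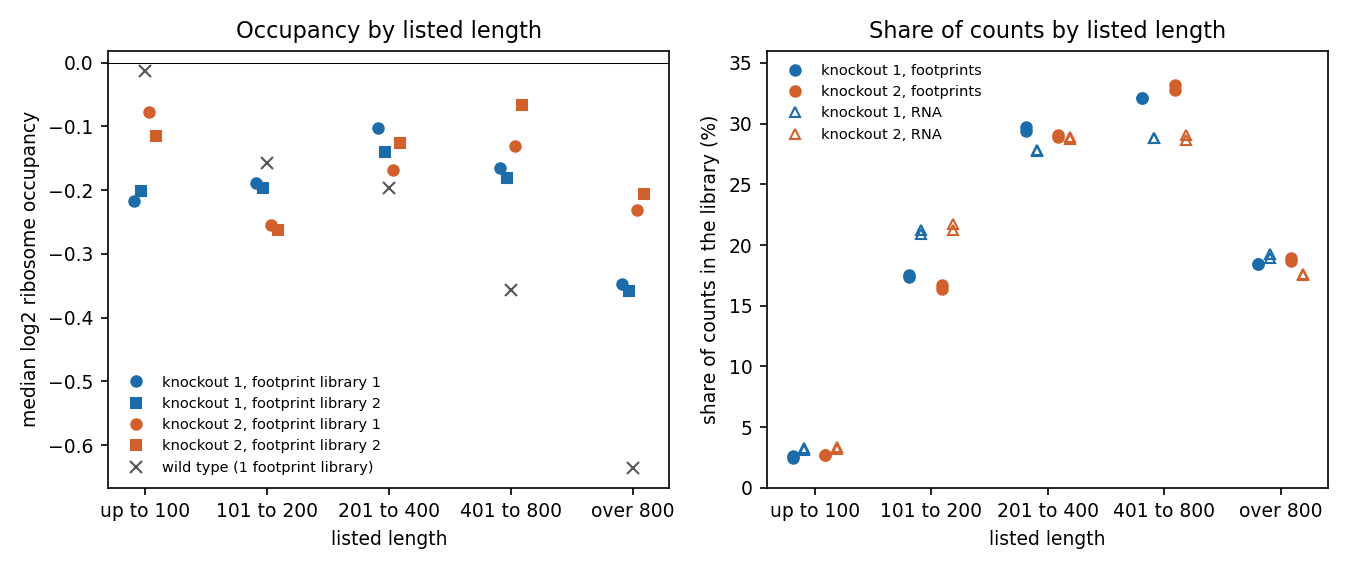
Left, median log2 occupancy (vertical) by class of listed length in each of the 4 knockout footprint libraries, with wild type as crosses; right, the share of counts in percent held by each class in footprints (filled) and RNA (open) of each knockout library. Footprints lie below RNA from 100 to 200 and above it from 400 to 800 in both knockouts, and the order changes between knockouts over 800.

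The fourth question was how alike the knockouts are. Occupancy ranked transcripts almost alike in both, with a rank correlation of 0.965 across 7765 features (Pearson's r 0.971). Single footprint libraries of one knockout against those of the other gave 0.943 to 0.957. The knockouts share no library, but features share length, sequence and mappability, so the value is a description. Of the highest 10% (776 features) the knockouts shared 86.0%, and of the lowest 10% they shared 79.8%. In 93.6% of features the knockouts lay within 0.5 of each other on the log2 scale, and 25 differed by more than 1. The SD of the difference between knockouts was 0.27, of which the replicate error (0.21) made up 60.3% as variance.

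The test of that difference (edgeR, interaction of assay and knockout, adjusted over 43469 features) called 415 features in 217 stretches of 20 lines, or 0.955% of those tested. Of them 345 (0.794%) had the higher occupancy in knockout 1 and 70 (0.161%) in knockout 2. Most kept their side of an equal share, 338 of 415, the median size was 0.74 on the log2 scale, and 88 exceeded 2-fold. By class of listed length, with no test between classes, occupancy was higher in knockout 1 for 58 and lower for 6 of 5677 features up to 100 (1.13% called). It was higher for 169 and lower for 14 of 11568 from 100 to 200 (1.58%), and higher for 112 and lower for 7 of 10560 from 200 to 400 (1.13%). From 400 to 800 it was higher for 5 and lower for 11 of 9888 (0.16%), and over 800 higher for 1 and lower for 32 of 5776 (0.57%). Medians of the difference, in the same order, were 0.018, 0.097, 0.069, -0.027 and -0.13, against 0.011 over all features.

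With any 1 library left out, the median up to 100 ranged from -0.0016 to 0.055 and so changed sign. The others kept theirs, from 0.081 to 0.11, 0.049 to 0.076, -0.055 to -0.016 and -0.15 to -0.11. The counts were far less stable: features higher in knockout 1 from 100 to 200 ranged from 20 to 226, and features lower in it over 800 from 0 to 60.

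The number of calls depended on single libraries. It was 58 without footprint replicate 1 of knockout 1 and 725 without RNA replicate 1 of knockout 2. It was 148 and 228 without footprint replicates 1 and 2 of knockout 2, and 191 and 152 without RNA replicates 1 and 2 of knockout 1. DESeq2 called 250, with 220 higher in knockout 1 and 30 lower.

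The called feature with the largest positive difference, among those with a mean of at least 5 CPM of RNA over the knockout libraries, was uc010ntm.3 (listed length 305). It met that mean through knockout 2 alone, and had at least 48 RNA counts in each knockout library. Its RNA was 1.39 and 0.968 CPM in knockout 1 against 19.99 and 21.98 in knockout 2 and 11.99 and 14.8 in wild type. Footprints were less reduced, at 8.75 and 6.91 CPM in knockout 1 against 22.3 and 23.0 in knockout 2 and 12.9 in wild type. Footprints and RNA were close to each other in knockout 2 and in wild type, while in knockout 1 footprints exceeded RNA, and the log2 difference in occupancy was 2.70 ± 0.23 (SE; edgeR adjusted p = 4.01e-10). In the other direction stood uc031pmd.2 (listed length 5929), with footprints of 3.61 and 4.77 CPM in knockout 1 and 6.31 and 5.04 in knockout 2, and RNA of 23.8, 27.5, 18.7 and 18.6 CPM. Its difference was -0.92 ± 0.23 (SE; edgeR adjusted p = 0.039). That call was lost by DESeq2 (adjusted p = 0.062) and without footprint replicate 1 of knockout 1 (edgeR adjusted p = 0.43), footprint replicate 1 of knockout 2 (0.39), RNA replicate 2 of knockout 1 (0.17) or RNA replicate 2 of knockout 2 (0.052).

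The last question was whether the ranking holds in wild type, whose libraries enter none of the knockout values. Wild-type occupancy, from 1 footprint and 2 RNA libraries, had a rank correlation of 0.933 with the mean of the knockouts across 7765 features. It was 0.939 with knockout 1 and 0.913 with knockout 2, both below the 0.965 between knockouts, which rests on 2 footprint libraries each. A single footprint library of 1 knockout against the other knockout gave 0.952 to 0.962. Spread was alike, with an SD of 1.10 in wild type, and the SD of the difference from wild type was 0.34 in knockout 1 and 0.42 in knockout 2. Wild type rests on 1 footprint library, so no replicate error can be given for it.

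With each ranking cut into 10 equal groups, 608 of 777 features (78.2%) of the highest group in the knockouts were in the highest group of wild type, and 95.2% in that or the next. Of the lowest group 612 of 777 (78.8%) were in the lowest of wild type, and 96.0% in that or the next. In the middle, 30.1% of group 5 and 31.1% of group 6 fell in the same group. These shares are not comparable along the ranking, since group 5 spans only -0.42 to -0.18 on the log2 scale, less than the SD of the difference from wild type, while the highest group runs from 1.12 to 7.67. Across the whole ranking 844 of 7765 features changed sides of the median, and 0 of those in the highest or lowest group did. All 62 features with more than 8-fold more footprints than RNA in the knockouts were at least 2-fold above an equal share in wild type, from 1.86 to 7.79 on the log2 scale, and 40 were again past 8-fold. All 48 with more than 8-fold fewer were at least 2-fold below in wild type, from -4.84 to -2.41, and 38 were past 8-fold. Over all 7765 features in wild type, 9.30% were more than 2-fold above and 25.3% more than 2-fold below, with 48 and 82 past 8-fold.

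**Figure D5:**
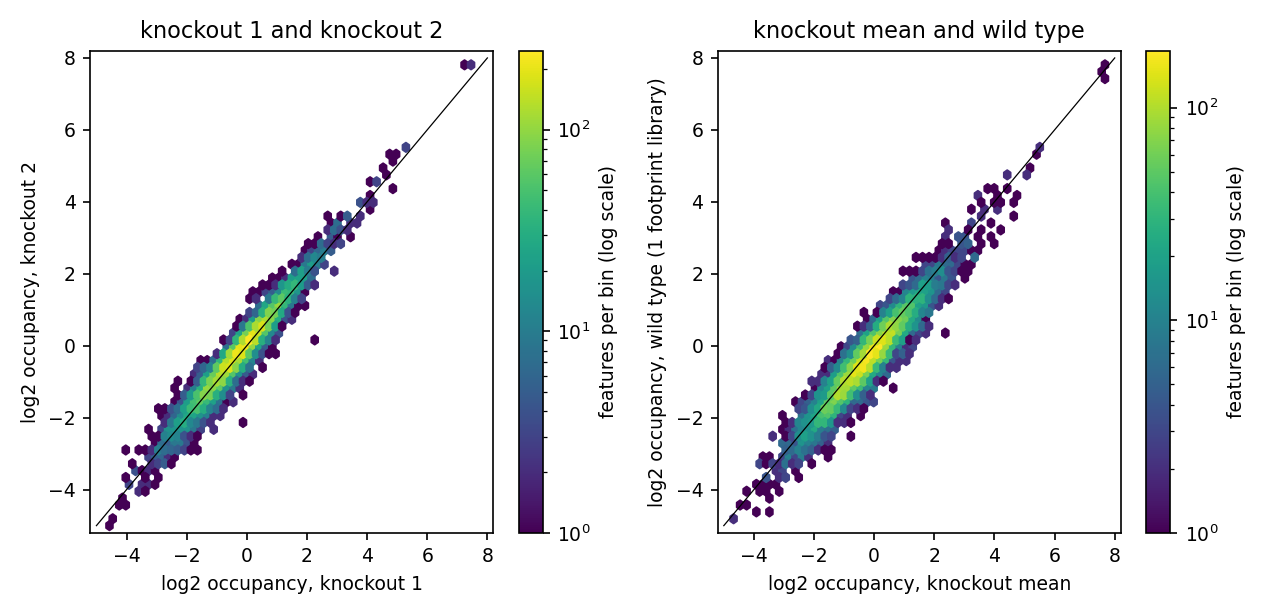
Log2 occupancy of 7765 features in knockout 1 (horizontal) against knockout 2 (vertical), left, and in the mean of the knockouts against wild type, right; colour gives the number of features per bin on a log scale and the line marks equality. Both panels follow the line, with rank correlations of 0.965 and 0.933.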

How the data were processed

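Ribosome footprints (RNase I digestion, ribosome pelleting, linker ligation, rRNA depletion) and messenger RNA (a stranded TruSeq kit) were prepared as the labels' protocols record. For software, TopHat2 2.0.9, Bowtie2 2.1.0 and CASAVA 1.8 are listed in the submitters' processing notes without roles, beside the build hg38. The counter, its strand setting and its handling of shared reads are not given in the sources used here. Whole-number counts per transcript were deposited, 1 file per library, without scaling. Each deposited row also carries a listed length of other, unstated unit (-9 to 35982); 88482 of 182398 rows have none and hold 0 counts.

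Rows with identical counts in all libraries were merged, keeping the first identifier and length; 2032 merged features had more than 1 length. Overlapping transcripts, paralogues and antisense transcripts could not be told apart. edgeR 4.0.16 (R 4.3.3) was fitted to the 8 knockout libraries with 4 group means, TMM factors within each assay, robust quasi-likelihood tests and Benjamini-Hochberg adjustment, and was tested on simulated data. The 2-fold test was glmTreat. The SE is the change over the square root of F. DESeq2 1.42.0 was an alternative. Exact permutation tests used scipy 1.17.1.

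Named transcripts were the 2 highest and 2 lowest called, with assays apart in all library pairs of a knockout, at least 5 CPM and 30 counts of RNA, and 1 per 20 lines, plus the extremes of the called difference between knockouts. Gene lists could not be used without symbols. Questions, lists and classes were chosen with earlier results of these data known. Alternatives were other scaling, tools, filters, line blocks, added CPM, length classes and each library left out; the limit of 5 CPM for distributions and the permutation within knockouts were added after seeing the data.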

Additional observations from a re-analysis of the deposited data

Results flagged for a closer look

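The share of counts held by transcripts with a listed length over 800 went in opposite directions in the 2 knockouts, with footprints minus RNA at -0.67 percentage points in knockout 1 and 1.21 in knockout 2. Every footprint library lay on the same side of every RNA library of its knockout, and the difference between knockouts was not tested for this share.

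For uc010ntm.3 the test of the difference between knockouts gave 2.70 on the log2 scale (edgeR adjusted p = 4.01e-10), with footprints of knockout 1 above RNA in every library pair. For uc031pmd.2 the same test gave -0.92 (edgeR adjusted p = 0.039), a call that was lost in 5 of the alternatives tried.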

How the results depend on the processing

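Of 268 pairs of a result and an alternative that kept all libraries, 192 left the result as it was. For a number of calls that meant within a fixed fold of the main number, and otherwise on its side of the threshold or within its spread. In 66 the value moved further, in 4 it changed sign and in 6 it lost its call; the cause was not tested. DESeq2 called 250 features between knockouts (220 higher and 30 lower in knockout 1). Without a count limit, which tests 62734 features against 43469, there were 659 (160 lower), and 11738 features more than 2-fold lower in footprints. With a mean of at least 50 counts, which tests 24825 features, 20686 were called in the knockout mean (9721 lower) and 6262 past 2-fold (2614 lower). Replicate numbers were not shown to pair the libraries (correlation of deviations 0.014 and 0.059), and a replicate block gave 547 calls between knockouts, 123 of them lower.

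The SD of occupancy was 1.07 over all features, 1.07 with 1 per 5 lines, 1.13 with 1 per 50 lines, 1.17 with 0.1 CPM added, 0.96 with 2 CPM added, 1.04 with at least 50 counts and 1.07 with at least 5 CPM. In that order without 0.1 CPM, the rank correlation with RNA level was -0.28, -0.23, -0.064, -0.17, -0.30 and -0.019. The rank correlation between knockouts was 0.950 over all features, 0.955 and 0.972 with 1 per 5 and per 50 lines and 0.970 with at least 5 CPM, and that with wild type was 0.912 over all features. The lowest 10% shared with wild type was 73.7% over all features, and the highest 10% was 81.1% with 1 per 50 lines and 80.8% with at least 5 CPM.

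Median occupancy up to 100 was 0.11 over all features, 0.057 and -0.22 with 1 per 5 and per 50 lines, -0.043 with at least 50 counts and -0.35 with at least 5 CPM. From 100 to 200 it was -0.14, -0.18 (1 per 5 lines), -0.20 (2 CPM added), -0.11 (50 counts) and -0.32 (5 CPM). From 200 to 400 it was -0.11, -0.034 (50 counts) and -0.21 (5 CPM). From 400 to 800 it was -0.0038 and -0.20, and over 800 -0.18 and -0.39, with 50 counts and 5 CPM. In 5 classes of equal numbers the medians between the shortest and longest were -0.14, -0.098 and -0.20. Their share differences were 0.84 percentage points in the second class (lengths 229 to 380) and -0.041 in the longest, opposite to the fixed classes of the same rank. With libraries exchanged only within each knockout (chosen after seeing the data), the differences of -0.61, -4.298, 0.94 and 3.70 points, shortest class first, lost their calls (exact permutation, adjusted p = 0.069), because 36 splits cannot reach the threshold. Over all features these 4 differences were -0.55, -2.50, 1.52 and 1.59. The share difference over 800 was -0.064 over all features and -0.078 with 1 per 5 lines, and that from 200 to 400 was 0.80 with 1 per 5 lines (exact permutation, adjusted p = 0.071).

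With each library left out in turn, calls between knockouts ranged from 58 to 725 (55 to 505 higher and 3 to 220 lower), called features in the knockout mean from 31285 to 34291, and those past 2-fold from 10804 to 12255. A knockout left with 1 library of an assay is assumed to vary like the others. The rank correlation with RNA level ranged from -0.171 to -0.148 and that between knockouts from 0.951 to 0.965. Share differences in percentage points, from the shortest to the longest class, ranged from -0.63 to -0.55, -4.58 to -4.11, 0.71 to 1.16, 3.51 to 3.94 and -0.035 to 0.58; the last changed sign without RNA replicate 1 of knockout 2. Footprint depth limits the poorly occupied end, since 383 features passing in RNA had no footprint count in the knockout libraries.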
